A study of Mus musculus with 8 samples.

Results

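Genes for plasma proteins that the liver makes and secretes were followed in thymic epithelium of mice with and without Cdx1, and in small intestine. The set held 45 genes chosen by name: 16 clotting genes, 14 complement genes, and 15 genes for carrier and other plasma proteins. All 45 were found on the array, as 58 probes, out of 34963 named genes. A probe counted as measured when the scanner software marked it well above background on at least 2 of the 3 arrays of 1 group. By that filter 43 of the 45 genes could be tested in thymic epithelium. C6 and C9, both components of the membrane attack complex, stayed near background on all 8 arrays, so no level is given for them.

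Medullary thymic epithelial cells (mTEC) of 3 Cdx1-/- and 3 Cdx1+/+ samples were compared, and small intestine epithelial cells (SIEC) were given as 1 Cdx1-/- and 1 Cdx1+/+ sample. All mice were of a mixed C57BL/6, 129 background; ages were not given in the labels. The mTEC were sorted as live (Fluorogold-) Epcam+ UEA1+ CD45- cells with high CD80 and high MHCII, each sample a pool of 4 to 6 thymi, and the SIEC as live Epcam+ CD45- cells, each a pool of 3 mice. Total RNA went onto 1-colour (Cy3) Agilent arrays, 1 per sample. The Cdx1-/- mice lack Cdx1, a homeobox transcription factor of the intestinal epithelium; which part of the gene was removed, and whether the probe lies in it, was not given in the labels.

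Hepatocytes secrete most of the proteins that circulate in plasma. Fibrinogen is a hexamer of paired alpha, beta and gamma chains that thrombin turns into fibrin, and the clotting factors upstream are protease zymogens that activate one another. Complement is a cascade of plasma proteases and pore proteins, and albumin, haptoglobin, hemopexin and their like bind hormones, heme and other cargo. Mature mTEC are known for transcribing genes of many other organs, liver included, at low levels or in few cells, partly under the regulator Aire; T cells that recognise such self proteins can be removed in the thymus. Such genes are called ectopically expressed there.

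Each level below is the log2 processed signal minus the 75th percentile of its array, so 0 is the level that 3 in 4 spots lie under, and differences are on the log2 scale. A gene was read from its brightest measured probe, and levels of different genes are not set against each other. The share of spots well above background was 58.6% to 59.2% in Cdx1-/- mTEC, 59.1% to 63.5% in Cdx1+/+ mTEC, and 44.6% and 46.3% for the SIEC labelled Cdx1-/- and Cdx1+/+. Cdx1 itself stood at 4.80, 4.98 and 5.00 in Cdx1-/- mTEC, against 5.88, 5.90 and 5.96 in Cdx1+/+ mTEC. In SIEC it went against the labels: 6.48 where the label reads Cdx1-/-, against 4.87 where it reads Cdx1+/+. Aire differed by -0.03 between the mTEC genotypes (adjusted p = 0.859). All 13 mature mTEC markers were well above background on mTEC arrays, and 8 of them on a SIEC array. All 11 small intestine markers were so in both tissues, so detection alone does not separate them. The log2 of the summed signals of the small intestine list was 6.17 to 6.65 in mTEC, against 11.98 and 11.49 in SIEC labelled Cdx1-/- and Cdx1+/+. For the mature mTEC list it was 9.30 to 9.96 in mTEC, against 8.32 and 8.05. The slides did not hold the groups evenly: all Cdx1+/+ mTEC and Cdx1-/- mTEC replicates 2 and 3 were on slide 1, while Cdx1-/- mTEC replicate 1 shared slide 2 with both SIEC arrays.

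The first comparison asked which of these liver genes differ in mTEC without Cdx1. Of the 43 tested, 9 fell in Cdx1-/- mTEC, none rose, and 34 did not pass (limma, Benjamini-Hochberg over 24338 genes, threshold 0.05). Over all genes 6.61% fell and 6.28% rose, 12.9% in all. The median difference of the 43 genes was -0.23, against 0.003 for all genes. In 22 members all 3 Cdx1-/- arrays lay below all 3 Cdx1+/+ arrays, and in 3 they lay above; over all genes these shares were 17.9% and 20.1%. At an unadjusted p under 0.05 there were 18 of the 43 members, beside 7564 of all 24338 genes. The genes that fell were the 3 fibrinogen chains and F7 among the clotting genes, C4bp among the complement genes, and Hpx, Itih1, Itih3 and Itih4 among the carriers. In pools of sorted cells, fewer cells transcribing a gene and less RNA per cell cannot be told apart.

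**Figure D1:**
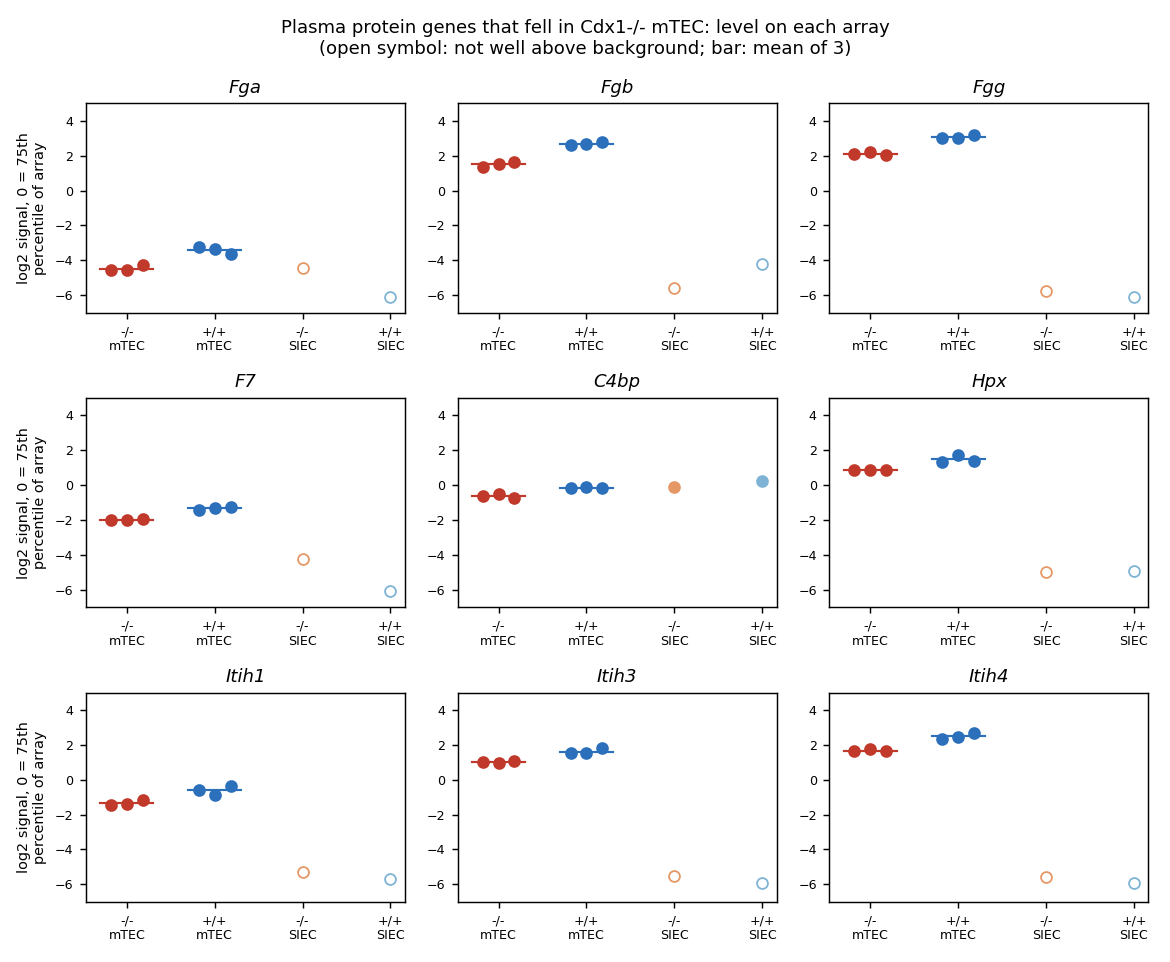
Level of the 9 genes that fell in Cdx1-/- mTEC, on each array: the y axis is the log2 signal with the 75th percentile of the array at 0, and the x axis holds Cdx1-/- mTEC, Cdx1+/+ mTEC and the arrays labelled Cdx1-/- and Cdx1+/+ SIEC. Points are arrays, bars are means of 3, and open points were not well above background. In every panel the 3 Cdx1-/- mTEC arrays lie below the 3 Cdx1+/+ mTEC arrays, and C4bp alone has filled points in SIEC.

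All 3 fibrinogen chains fell. Fgb, the beta chain, stood at 1.37, 1.55 and 1.64 in Cdx1-/- mTEC, against 2.62, 2.68 and 2.78 in Cdx1+/+ mTEC. The groups did not overlap, and Fgb was 2.25-fold lower in Cdx1-/- mTEC (log2 difference -1.17, SE 0.10, adjusted p = 0.0033). Fgg, the gamma chain, gave 2.11, 2.20 and 2.03 in Cdx1-/- mTEC and 3.03, 3.04 and 3.17 in Cdx1+/+ mTEC. Its difference of -0.97 (SE 0.09, adjusted p = 0.0038) was again larger than the spread within either group. Fga, the alpha chain, stood at -4.55, -4.58 and -4.29 in Cdx1-/- mTEC, against -3.23, -3.34 and -3.64 in Cdx1+/+ mTEC, a difference of -1.07 (SE 0.14, adjusted p = 0.0080). That difference depended on the processing: it was -0.40 after a normexp background correction, where it did not pass (adjusted p = 0.0804), and -1.74 with both Fga probes averaged. A second Fga probe stood at -3.18, -2.67 and -3.08 in Cdx1+/+ mTEC and stayed near background in all 3 Cdx1-/- mTEC samples. The 3 genes are neighbours: in mm9 their probes lie at chr3:82818825-82818884 (Fgg), chr3:82837260-82837319 (Fga) and chr3:82846334-82846393 (Fgb), Fgb on the minus strand and the others on the plus strand.

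Marker lists of cell types were counted in the same comparison, beside the 6.61% of all genes that fell and 6.28% that rose. Of 6 platelet and megakaryocyte genes, 3 fell and none rose in Cdx1-/- mTEC. Their summed level ranged from 3.27 to 3.46 in Cdx1-/- mTEC and from 3.63 to 3.67 in Cdx1+/+ mTEC. None of the 6 was absent from mTEC: all were well above background on mTEC arrays. In the mesenchymal list 2 of 7 genes fell (summed level 5.12 to 5.39 in Cdx1-/- mTEC, 5.47 to 5.66 in Cdx1+/+ mTEC). The macrophage and dendritic cell list had 1 gene higher and 1 lower of 10 (5.14 to 5.35 in Cdx1-/- mTEC, 5.18 to 5.46 in Cdx1+/+ mTEC), the endothelial list 1 higher and 1 lower of 6, and the thymocyte list 1 lower of 9. The small intestine list had 7 lower of 11 (6.17 to 6.34 in Cdx1-/- mTEC, 6.57 to 6.65 in Cdx1+/+ mTEC), and the mature mTEC list 1 higher of 13 (9.30 to 9.74 in Cdx1-/- mTEC, 9.45 to 9.96 in Cdx1+/+ mTEC). Their part in the fall of the plasma protein genes was not tested.

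Promoters of the 5 genes with the smallest p are shown because these genes fell together; each runs from 250 bases before to 50 bases after the start, 5′ to 3′ on the strand of the gene, from RefSeq on GRCm38.p6. Capitals mark matches, on either strand, to the letters searched: GTTAATNAT for HNF1, CAAAGTCCA for HNF4, TTGNNNCAA for CEBP, TTCNNNGAA for STAT and TTTATNG for CDX.
Fgb, chr3:83049814-83050113, minus strand: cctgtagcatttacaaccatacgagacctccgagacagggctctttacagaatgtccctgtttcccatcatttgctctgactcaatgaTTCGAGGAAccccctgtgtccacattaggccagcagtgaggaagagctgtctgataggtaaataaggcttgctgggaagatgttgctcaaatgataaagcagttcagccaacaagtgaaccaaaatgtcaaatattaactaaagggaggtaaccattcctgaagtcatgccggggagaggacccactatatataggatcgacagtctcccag
Fgg, chr3:83007474-83007773, plus strand: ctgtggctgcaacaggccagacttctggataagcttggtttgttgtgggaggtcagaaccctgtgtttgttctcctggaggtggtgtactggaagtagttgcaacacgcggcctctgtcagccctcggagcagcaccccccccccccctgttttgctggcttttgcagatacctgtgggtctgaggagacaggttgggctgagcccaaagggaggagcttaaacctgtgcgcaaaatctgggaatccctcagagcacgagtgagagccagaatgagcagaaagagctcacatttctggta
Fga, chr3:83025903-83026202, plus strand: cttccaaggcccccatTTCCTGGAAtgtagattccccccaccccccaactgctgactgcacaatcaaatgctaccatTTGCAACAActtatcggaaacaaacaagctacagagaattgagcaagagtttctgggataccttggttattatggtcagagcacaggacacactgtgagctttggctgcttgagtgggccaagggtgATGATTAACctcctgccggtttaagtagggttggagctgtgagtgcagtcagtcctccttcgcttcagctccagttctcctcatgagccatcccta
F7, chr8:13025784-13026083, plus strand: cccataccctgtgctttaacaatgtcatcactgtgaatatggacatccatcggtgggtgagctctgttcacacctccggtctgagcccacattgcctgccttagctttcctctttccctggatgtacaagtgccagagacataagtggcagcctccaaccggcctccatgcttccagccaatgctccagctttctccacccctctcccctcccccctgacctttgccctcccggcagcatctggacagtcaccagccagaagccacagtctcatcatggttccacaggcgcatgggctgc
Itih4, chr14:30886226-30886525, plus strand: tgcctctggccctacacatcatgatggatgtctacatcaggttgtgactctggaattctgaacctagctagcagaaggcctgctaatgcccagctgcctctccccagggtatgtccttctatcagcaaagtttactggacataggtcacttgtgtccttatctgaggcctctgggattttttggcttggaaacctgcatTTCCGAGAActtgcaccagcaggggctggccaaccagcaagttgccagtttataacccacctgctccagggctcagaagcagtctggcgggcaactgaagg

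In the Fga window the search found the HNF1 letters at bases 205 to 213 on the minus strand, the CEBP letters at bases 78 to 86 and the STAT letters at bases 17 to 25. The windows of Fgb and Itih4 each held 1 match, to the STAT letters, at bases 89 to 97 and 200 to 208. No capitals stand in the windows of Fgg and F7. Over all 9 genes that fell, the HNF1 letters were in 2 (Fga and C4bp), the CEBP letters in 1, the STAT letters in 3, and the HNF4 and CDX letters in none. Among 32851 promoter windows of 300 bases the shares were 0.801% for HNF1, 0.475% for HNF4, 5.82% for CEBP, 8.30% for STAT and 10.9% for CDX. Of the 35 tested members with a window, 6 held the HNF1 letters, 4 CEBP, 8 STAT, 1 CDX and none HNF4. The matches found did not overlap one another. A match is a run of letters and was not tested as a binding site, and a window with no match says nothing of the factor.

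Among the other clotting genes only F7 passed. F7 encodes coagulation factor VII, which with tissue factor starts the extrinsic pathway. It stood at -2.02, -1.98 and -1.93 in Cdx1-/- mTEC, against -1.44, -1.30 and -1.27 in Cdx1+/+ mTEC (difference -0.64, SE 0.09, adjusted p = 0.0086). The 2 groups of arrays did not overlap, and a second F7 probe gave -0.76 (SE 0.13, adjusted p = 0.0199 with every probe fitted on its own). The 12 clotting genes that did not pass ranged from -0.50 to 0.31, with adjusted p from 0.0741 to 0.496. Of the 16 clotting genes, 13 had a difference below 0 and the median was -0.38, or -0.24 after normexp correction. F12, the zymogen that starts the contact pathway, had the largest difference among the 12: -3.01, -2.61 and -2.71 in Cdx1-/- mTEC and -2.43, -2.35 and -2.04 in Cdx1+/+ mTEC (adjusted p = 0.0741). Prothrombin (F2) and factor IX (F9) had differences of 0.18 and 0.31, and protein C (Proc), an anticoagulant protease, -0.38, none of them past the test. Kng1, the kininogen from which bradykinin is cut, differed by -0.15 (adjusted p = 0.314).

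F10, coagulation factor X, depended on the probe. Its brightest probe is made of a short repeat, and its other probe is not; the first 30 bases of each show why both are given.
F10 brightest probe, mm9 chr8:13056223-13056290: agaaagaaagaaagaaagaaagaaagaaag
F10 other probe, mm9 chr8:13055774-13055833: tggcatctacacaaaggtcacgaccttcct
The brightest probe held 8 distinct 4-base words and the other 54. It was the only repeat among the 58 probes of the set, a repeat being a probe with fewer than 20 distinct words, and 77 probes of the array met that limit. On the brightest probe F10 stood at 4.25, 3.71 and 4.26 in Cdx1-/- mTEC and 4.43, 4.50 and 4.40 in Cdx1+/+ mTEC, a difference of -0.37 that did not pass (adjusted p = 0.167). The other probe read 0.66, 0.80 and 0.69 in Cdx1-/- mTEC, against 1.69, 1.99 and 1.71 in Cdx1+/+ mTEC, with no overlap. With the repeat probe left out, which was decided after these values were seen, the log2 difference of F10 was -1.09 (SE 0.11, adjusted p = 0.0043), and the count of members that fell became 10. F10 and F7 are neighbours, with probes at chr8:13055774-13055833 and chr8:13035257-13035316 (mm9).

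Of 12 complement genes tested, 1 fell and 11 did not pass. C4bp, the inhibitor that binds C4b and stops the classical and lectin convertase, stood at -0.63, -0.52 and -0.76 in Cdx1-/- mTEC, against -0.15, -0.13 and -0.14 in Cdx1+/+ mTEC. The Cdx1+/+ arrays were nearly equal and the groups did not overlap (difference -0.50, SE 0.09, adjusted p = 0.0193). The other 11 ranged from -0.35 to 0.20, with adjusted p from 0.0714 to 0.954, and the class median was -0.07. That median was -0.17 without Cdx1-/- replicate 3, -0.13 without Cdx1+/+ replicate 3, -0.11 without Cdx1-/- replicate 1 or Cdx1+/+ replicate 2, and -0.10 without Cdx1+/+ replicate 1; it was -0.14 after normexp correction and -0.12 with a gene's probes averaged. C3, on which all complement pathways converge, stood at 6.76, 6.86 and 6.80 in Cdx1-/- mTEC and 6.73, 7.10 and 6.68 in Cdx1+/+ mTEC. These values overlapped (difference -0.03, adjusted p = 0.897). Hc, which encodes complement C5, differed by 0.20, and the C8 subunit genes C8a, C8b and C8g by -0.02, -0.35 and 0.10. A second C8g probe gave 0.40 (SE 0.11, limma adjusted p = 0.0609 with every probe fitted on its own). Mbl2, a mannose-binding lectin that starts the lectin pathway, differed by -0.20 (adjusted p = 0.246).

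Among 15 carrier and other plasma proteins, 4 fell, none rose and the class median was -0.23. Of these 4, 3 encode members of the inter-alpha-trypsin inhibitor heavy chain family, which are secreted proteins. Itih4 stood at 1.63, 1.75 and 1.64 in Cdx1-/- mTEC, against 2.33, 2.43 and 2.71 in Cdx1+/+ mTEC (difference -0.82, SE 0.12, adjusted p = 0.0105). A second Itih4 probe differed by -0.68 (adjusted p = 0.0131 with every probe fitted on its own). Itih3 gave 1.04, 0.96 and 1.05 in Cdx1-/- mTEC, against 1.52, 1.51 and 1.82 in Cdx1+/+ mTEC (difference -0.60, SE 0.11, adjusted p = 0.0197). Itih1 gave -1.43, -1.39 and -1.15 in Cdx1-/- mTEC, against -0.59, -0.89 and -0.35 in Cdx1+/+ mTEC (difference -0.71, SE 0.16, adjusted p = 0.0338). No array of one genotype reached into the other for any of the 3. Their probes lie together, at chr14:31714970-31715029 (Itih4), chr14:31721835-31721894 (Itih3) and chr14:31742375-31742434 (Itih1) in mm9. Itih2, on another chromosome, differed by 0.29 (SE 0.13, adjusted p = 0.171).

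The heme carrier hemopexin (Hpx) fell as well. It stood at 0.85, 0.87 and 0.85 in Cdx1-/- mTEC, against 1.34, 1.73 and 1.39 in Cdx1+/+ mTEC (difference -0.63, SE 0.12, adjusted p = 0.0222). Haptoglobin (Hp), which binds free hemoglobin, gave 3.49, 3.54 and 3.72 in Cdx1-/- mTEC and 2.91, 3.33 and 3.01 in Cdx1+/+ mTEC. Its groups did not overlap, but the difference of 0.50 did not pass (SE 0.13, adjusted p = 0.0555). Ttr, the thyroxine carrier transthyretin, stood at -0.82, -0.75 and -0.94 in Cdx1-/- mTEC, against -0.07, 0.76 and -0.24 in Cdx1+/+ mTEC. The spread of the Cdx1+/+ arrays was wide, and the difference of -0.99 (SE 0.25) lay at the threshold, with an adjusted p of 0.0501; with the replicate number as a block it was 0.0415, past the threshold. Albumin (Alb) differed by 0.07 (adjusted p = 0.823) and the fetal albumin relative Afp by -0.02 (adjusted p = 0.926). Over the 11 carriers that did not pass, differences ranged from -0.99 to 0.50.

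**Figure D2:**
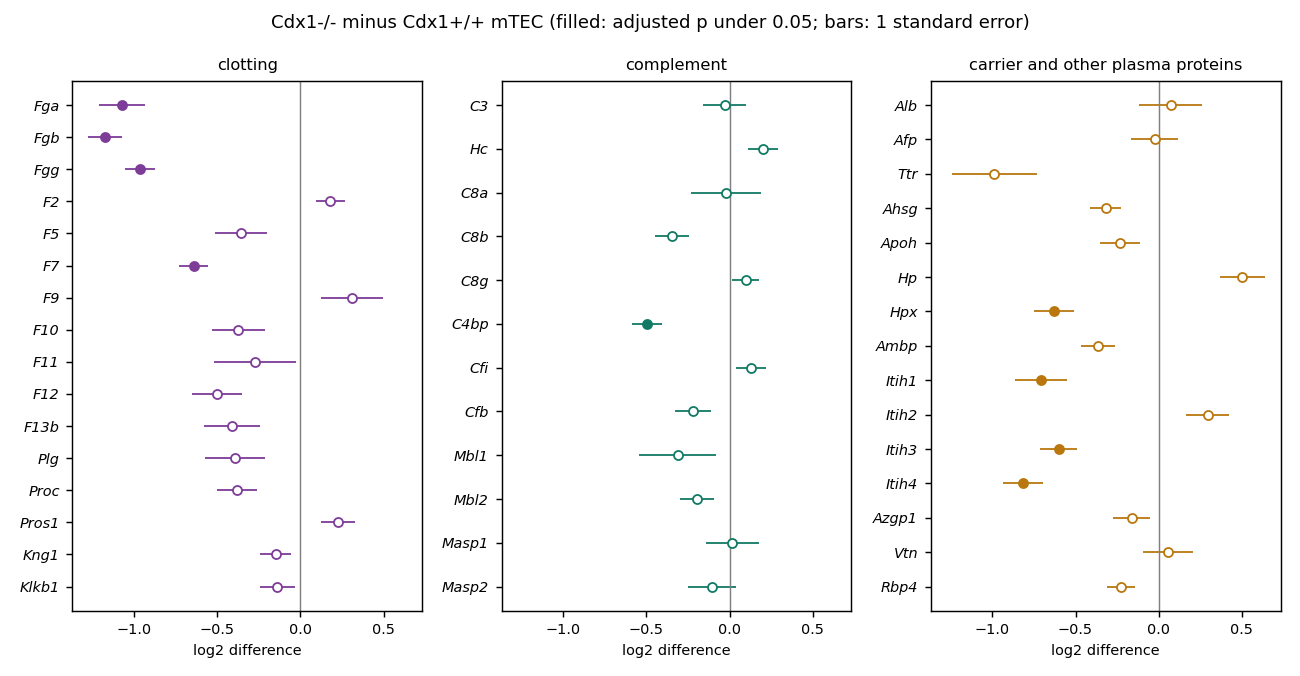
Difference between Cdx1-/- and Cdx1+/+ mTEC for the 43 tested genes, in 3 panels by class: the x axis is the log2 difference (Cdx1-/- minus Cdx1+/+), points are fitted differences, bars are 1 standard error and filled points passed at an adjusted p under 0.05. The 9 filled points all lie left of 0, from -1.17 (Fgb) to -0.50 (C4bp).

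The calls were not equally firm. Fgb, Fgg, Fga, F7 and Itih4 passed whichever of the 6 mTEC arrays was left out. C4bp, Hpx, Itih1 and Itih3 lost the call without Cdx1+/+ replicate 3, which left 5 genes that fell, and without Cdx1-/- replicate 3, which left those 5 and added Mbl1. Without Cdx1-/- replicate 1, the 1 mTEC array on slide 2, Hpx and Itih1 lost it, leaving 7. Without Cdx1-/- replicate 2, Hpx, Itih1 and Itih3 lost it; without Cdx1+/+ replicate 1, C4bp and Itih1; and without Cdx1+/+ replicate 2, C4bp, while Ambp, Hp and Ttr passed. Over all 24338 genes, those that fell numbered 1608 in the main fit, 547 without Cdx1+/+ replicate 3 and 914 without Cdx1-/- replicate 3. Without any other single mTEC array they numbered 782 to 935, so calls were lost over the whole array too. With the slide as a block the same 9 genes passed. Fga lost the call after normexp correction, as given above.

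Related genes outside the set were counted from lists, beside the 6.61% of all genes that fell and the 6.28% that rose. Of 19 other clotting and fibrinolysis genes tested, 2 fell and 1 rose in Cdx1-/- mTEC: Proz, a cofactor of factor X inhibition, by -1.03 (adjusted p = 0.0042), Cpb2, a carboxypeptidase that slows fibrin breakdown, by -0.54 (adjusted p = 0.0249), and Vwf, the platelet adhesion factor, by 0.35 (adjusted p = 0.0488). Of 18 other complement genes 1 fell, the ficolin gene Fcna (-0.41, adjusted p = 0.0216). Of 22 other hepatocyte genes 8 fell and 1 rose, and the median was -0.35. Among those of smallest p were Pck1, a gluconeogenic enzyme (-1.64), Apob, the apolipoprotein of chylomicrons and liver lipoproteins (-1.45), and Tdo2, a tryptophan-degrading enzyme (-1.10). Apob and Pck1 were well above background on both SIEC arrays, and Tdo2 on neither. Orm1, an acute-phase plasma protein, rose by 0.56 (adjusted p = 0.0116). Of 21 liver transcription factors 6 fell and 1 rose. Hnf4a differed by -1.20, Gata4 by -1.20, Onecut2 by -0.68 and Hnf4g by -0.88, and Foxa2 rose by 0.62 (adjusted p = 0.0321). Each of these factors was well above background on both SIEC arrays and higher there than in mTEC.

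The second comparison set the genes in mTEC against SIEC, a tissue that is not their main source. Of 43 tested, 32 were higher and 7 lower in mTEC, and 4 did not pass. Of the 32, 23 passed the filter through the mTEC arrays alone. The filter itself favoured that direction for them, so their calls are not separate support for it. Over all 25273 genes tested, 34.3% were higher and 49.3% lower in mTEC, 83.6% in all, so that a single call says little. In 29 members all mTEC arrays lay above both SIEC arrays and in 6 below; over all genes these shares were 33.4% and 48.7%. The median difference of the members was 2.34, against -0.43 over all genes. After normexp correction these medians were 0.59 for the members and -0.56 for all genes, after quantile normalization 2.39 and -0.10, and 1.87 and -0.90 in the authors' deposited table. By class 11 of 16 clotting genes were higher and 3 lower, 8 of 12 complement genes higher and 3 lower, and 13 of 15 carriers higher and 1 lower. Of the higher ones, 9, 4 and 10 in that order passed the filter through mTEC alone. The fitted class medians were 1.73 for clotting, 0.88 for complement and 4.25 for carriers, but they include genes whose SIEC signal was not well above background. With such genes at their lower bound, described below, or at 0 where none was reached, the medians were 0.70, 0.24 and 2.39, and 1.26 over all members. After normexp correction the fitted class medians were 0.07, -0.20 and 1.32, and in the authors' table the complement median was 0.40. Without the Cdx1-/- SIEC array the complement median was 1.40. After normexp correction the members were 24 higher and 10 lower, with Fga, F11, F13b, C8a, Mbl1 and Masp1 turned to below 0. In the authors' table C8g and Rbp4 turned to below 0. Leaving out 1 array at a time changed the calls of 8 members. Rbp4 lost its call without any of the mTEC arrays except Cdx1+/+ replicate 2, and without the Cdx1-/- SIEC array. Fga lost it without Cdx1-/- mTEC replicate 3, any Cdx1+/+ mTEC array, or the Cdx1+/+ SIEC array. C8g lost it without Cdx1-/- mTEC replicate 2 or the Cdx1-/- SIEC array, and Masp1 and Mbl2 without the Cdx1+/+ SIEC array. Ttr passed without Cdx1+/+ mTEC replicate 2, Klkb1 without the Cdx1-/- SIEC array and Masp2 without the Cdx1+/+ SIEC array. Over all genes 58.9% of calls were lower in mTEC, and 70.7% after normexp correction.

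Of the 32 genes higher in mTEC, 23 were not well above background on either SIEC array, and 9 were measured on both. For the 23 only a lower bound of the fold holds: the mTEC mean against the dimmest signal still measured on the SIEC arrays, or the probe's own signal where that was higher. A bound above 1 was reached by 19 of them, from 1.13-fold for F11 to 173-fold for Kng1, each on the brightest probe of the gene. Both SIEC arrays were on slide 2 with 1 mTEC array, so for the other 5 mTEC arrays tissue and slide cannot be told apart. Within slide 2, that mTEC array against the SIEC array of its genotype label gave the same sign for 38 of the 39 called genes, Fga being the exception. These 2 arrays also entered the fit that made the calls, so the signs are not a separate check. Some of these differences were small: Masp1 gave 0.06 and Mbl2 0.09, against fitted values of 0.72 and 1.04.

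The members furthest above SIEC came from all 3 classes. On its brightest probe Kng1 stood at 3.56 to 3.58 in Cdx1-/- mTEC and 3.61 to 3.86 in Cdx1+/+ mTEC. Its SIEC signals there were -5.54 and -5.88, so this probe was at least 173-fold higher in mTEC. A second Kng1 probe stood at -1.98 to -1.77 in mTEC, against -5.33 and -4.47 in SIEC, neither well above background. Its log2 difference was only 3.01 (SE 0.16). Hp was at least 139-fold higher, with 2.91 to 3.72 over the 6 mTEC arrays against -3.81 and -5.88 in SIEC. Fgg was at least 83.6-fold higher (2.03 to 3.17 in mTEC, -5.76 and -6.10 in SIEC), and Fgb at least 59.5-fold (1.37 to 2.78 in mTEC, -5.58 and -4.24 in SIEC). No SIEC array came near an mTEC array in any of these genes. Itih4 was at least 58.5-fold, Itih3 at least 34.5-fold and Hpx at least 31.1-fold higher in mTEC, with SIEC values from -4.94 to -5.95. The Itih4 bound is that of its brightest probe, whose fitted log2 difference was 7.85, against 3.92 (SE 0.23) on a second probe. C3 was measured on both sides: 6.68 to 7.10 in mTEC, against 1.63 and 0.63 in SIEC, a log2 difference of 5.69 (SE 0.23, adjusted p = 2.4e-07). Albumin, with 0.02 to 0.65 in mTEC, was not well above background in SIEC and at least 17.3-fold higher in mTEC. For Fga no bound above 1 was reached.

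Of the 7 members lower in mTEC, Cfb, factor B of the alternative pathway, had the largest difference. It stood at 3.17, 3.04 and 3.08 in Cdx1-/- mTEC and 3.25, 3.50 and 3.20 in Cdx1+/+ mTEC, against 5.08 and 5.02 in SIEC (difference -1.84, SE 0.13, adjusted p = 4.2e-06). Proc ranged from -1.73 to -1.01 in mTEC, against 0.14 and 0.18 in SIEC (-1.53, SE 0.14). F9 ranged from -3.98 to -3.12 in mTEC, against -1.93 and -2.26 in SIEC (-1.40, SE 0.19). In all of these both SIEC arrays lay above every mTEC array. Afp ranged from 0.36 to 0.86 in mTEC, against 1.60 and 1.55 in SIEC (-1.01), and Cfi, the protease that degrades C3b and C4b, from 0.22 to 0.50, against 1.01 and 1.32 (-0.78). C4bp differed by only -0.46 (adjusted p = 0.0039), which did not pass without the genotype term in the fit (adjusted p = 0.0761), and its SIEC values of -0.13 and 0.27 touched those of Cdx1+/+ mTEC. F10 was lower on its repeat probe (-1.41, SE 0.20) and higher by 4.67 (SE 0.24) on the other. Pros1, Klkb1, Masp2 and Ttr did not pass.

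**Figure D3:**
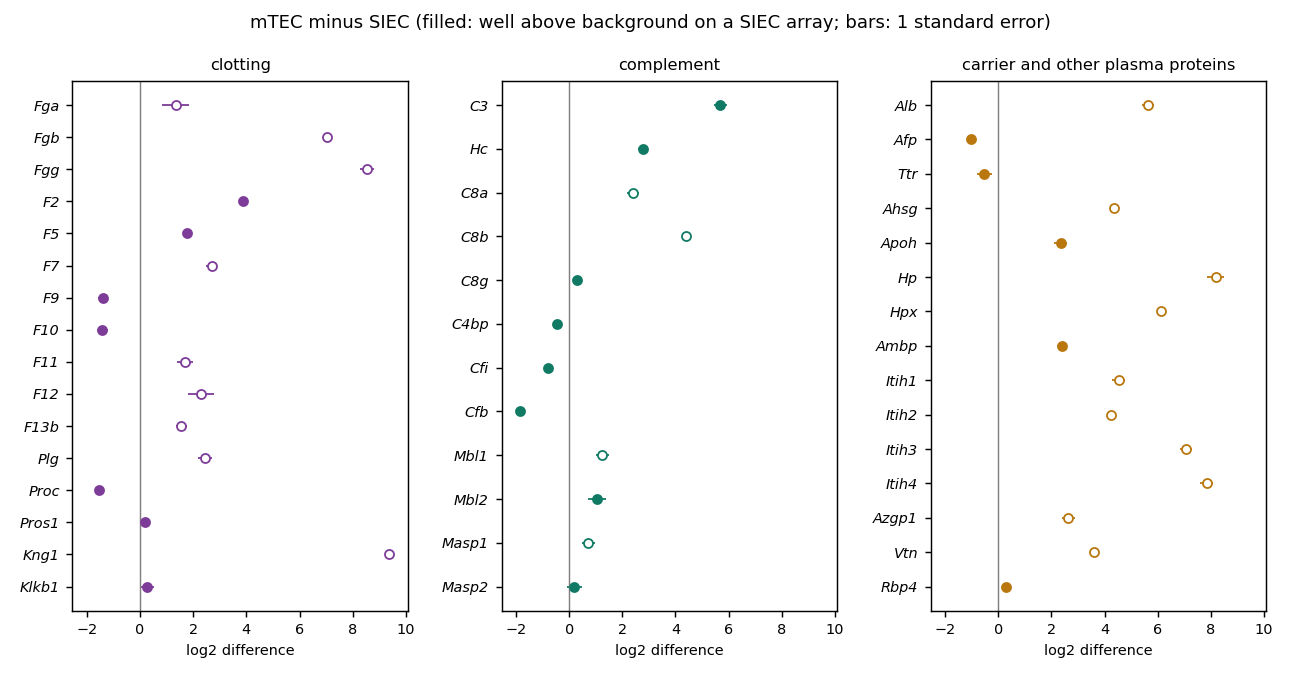
Difference between mTEC and SIEC for the 43 tested genes, in 3 panels by class: the x axis is the log2 difference (mTEC minus SIEC), bars are 1 standard error, and open points were not well above background on either SIEC array, so that their fold is a bound only. Most points lie right of 0, up to 9.36 for Kng1, and Cfb lies furthest left at -1.84. After normexp correction Fga, F11, F13b, C8a, Mbl1 and Masp1 lay left of 0, as did C8g and Rbp4 in the authors' deposited table and C8g with a gene's probes averaged; F10 lay right of 0 without its repeat probe.

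The other lists in the same comparison gave 13 higher and 6 lower of 20 for other clotting and fibrinolysis genes, and 15 higher and 3 lower of 18 for other complement genes. Other hepatocyte genes had 11 higher and 9 lower of 23, and liver transcription factors 5 higher and 12 lower of 21, beside the 34.3% higher and 49.3% lower of all genes. Serpinc1, which encodes antithrombin, was higher in mTEC by 4.97, whereas the factors Hnf4a and Gata6 were lower in mTEC by -7.25 and -6.78.

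In SIEC itself 20 members were measured on at least 1 of the 2 arrays. With 1 array per genotype there is no test, and Cdx1 went against the labels here, so values are given by label only. On the array labelled Cdx1-/-, 4 members were at least 2-fold higher and 2 at least 2-fold lower than on the array labelled Cdx1+/+; over 19132 genes the shares were 5.71% and 3.55%. Mbl2 stood at 3.03 in the sample labelled Cdx1-/-, against 1.49 in the one labelled Cdx1+/+. Klkb1, plasma prekallikrein, gave -1.96 and -3.12, Hc -2.37 and -3.42, and C3 1.63 and 0.63 in the same order. These 4 were the higher ones. Apoh, a phospholipid-binding glycoprotein, was lower, with -3.32 under the label Cdx1-/-, against -2.00 under Cdx1+/+. Masp2, a lectin-pathway protease, was not well above background on the array labelled Cdx1-/- and stood at -2.37 on the other, at least 2.29-fold lower. With quantile normalization, as in the authors' table, 1 member was higher and 2 lower. The remaining 14 lay within 2-fold, Cfb for one at 5.08 and 5.02.

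**Figure D4:**
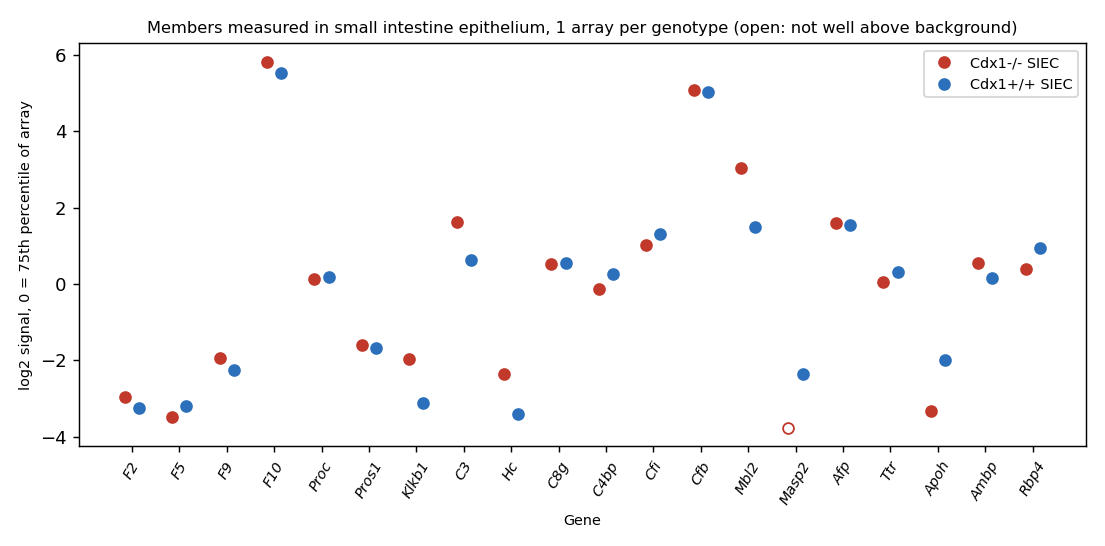
Level of the 20 members measured in SIEC, with the array labelled Cdx1-/- left of the array labelled Cdx1+/+ for each gene: the y axis is the log2 signal with the 75th percentile of the array at 0, and the open point was not well above background. Mbl2, Klkb1, Hc and C3 are higher, and Masp2 and Apoh lower, on the array labelled Cdx1-/-; each point is 1 array, so no error can be shown.

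Whether the genotype difference itself differed between the tissues was tested as an interaction (limma), with the single SIEC arrays assumed to vary like the mTEC arrays. It passed for 13 of 43 members, against 14.4% of 25273 genes. Of the 13, only 5 were measured on both SIEC arrays. Masp2 was measured on 1 of them, and for Fga, Fgg, F12, Hp, Itih3, Itih4 and Azgp1 the SIEC side is a difference between signals not well above background, so no value is given for them. Each value below is Cdx1-/- minus Cdx1+/+ in mTEC minus the same difference between the SIEC arrays. Because Cdx1 went against the SIEC labels, it is given as labelled and also with the sign of the SIEC difference turned, which was chosen after these values were seen. Mbl2 differed by -0.20 in mTEC and by 1.54 between the SIEC arrays, an interaction of -1.73 as labelled (adjusted p = 0.0051) and 1.34 turned (adjusted p = 0.013). Klkb1 gave -1.29 as labelled (adjusted p = 0.0133) and 1.01 turned (adjusted p = 0.0341). Hc gave -0.85 as labelled (adjusted p = 0.0279) and 1.25 turned (adjusted p = 0.0105). The sign of all 5 thus depended on the SIEC labels. Apoh gave 1.09 as labelled (adjusted p = 0.0336) and -1.56 turned (adjusted p = 0.0137), and C3 -1.04 as labelled (adjusted p = 0.0464) and 0.98 turned, no longer past the test (adjusted p = 0.0673).

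With the replicate number as a block 4 of the 13 interaction calls held, those of Mbl2, Klkb1, Fga and F12. Hc (adjusted p = 0.0952), C3 (0.135) and Apoh (0.0709) were among the 9 that lost theirs. After normexp correction 2 of the 13 held, and of the 5 genes measured on both SIEC arrays Mbl2 alone passed (-1.63, adjusted p = 0.0269). Klkb1 and Mbl2 passed whichever mTEC array was left out. C3, Hc and Apoh lost the call without at least 1 of them, and the count over all members was 8 without Cdx1-/- mTEC replicate 3. Over all 25273 genes, interaction calls above and below 0 numbered 1404 and 2241 in the main fit. They numbered 581 and 945 with the replicate block, 186 and 421 after normexp correction, and 976 and 1853 without Cdx1-/- mTEC replicate 3. As labelled, 11 of the 13 calls were below 0; 8 were below and 2 above 0 in the authors' table, after quantile normalization 8 below and 5 above, and with the SIEC difference turned 7 below and 5 above. Over all genes 61.5% of interaction calls were below 0 as labelled, 39.3% in the authors' table and 36.9% with the SIEC difference turned.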

How the data were processed

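RNA of 6 mTEC and 2 SIEC samples was measured on 1-colour Agilent arrays, 1 array per sample; genotype, tissue and replicate number came from the labels. The intensities used are the processed signals of the deposited scanner files, background-subtracted and detrended within each array by Agilent Feature Extraction 10.7.3.1, per the file headers, which give mm9 coordinates. The authors' deposited table holds the same intensities divided by 1 constant per array, which sets each array's median to 1; how it was scaled was otherwise not given in the sources used here.

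Control spots and outlier spots were left out (59305 spots, 55669 probes used), spots of a probe were averaged, and log2 signal minus the 75th percentile of the array was fitted with limma 3.58.1 in R 4.3.3. Levels depend on that scaling, and differences between signals near background depend on the background correction. No spot was saturated, and the number of arrays limits the precision. Nothing in the labels says whether mTEC samples came from separate sorts, so p-values measure the spread between these samples. The genotype comparison used the 6 mTEC arrays, and the tissue comparison all 8 with genotype as a term. Gene names are those of the array, except that 27509 of 55681 probes were named by accession from RefSeq. No member changed its name. Members, lists and the rule for naming genes were chosen with earlier results of these data known. By that rule every called member, the fibrinogen chains, up to 8 members per direction of largest tissue difference and up to 4 genes of other lists were named; Cdx1 and Aire served as checks. Of the genes this rule names, 1 from another list is not reported here. Other genes were named after their values were seen.

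Same-numbered mTEC samples deviated together (correlations of deviations 0.32, 0.15 and 0.15 for numbers 1, 2 and 3). That pairing comes from the data, not the labels. The main fits did not pair samples by number, and the replicate block was run as an alternative only. With it the adjusted p of Fgb was 0.0161 (limma), against 0.0033 in the main fit. On simulated data with 24338 genes, the genotype test recovered 78% of genes changed by 1 and 99% of genes changed by 2 on the log2 scale. On 25273 genes the tissue test recovered 81% and 98%. Of 192 simulated genotype calls 15 were of unchanged genes, and of 187 tissue calls 8. Only 100 genes were changed by each amount, far fewer than were called in the data, and the noise was drawn independently for each gene. Changes smaller than 1, the size of most called members, were not simulated. Alternatives were normexp correction with an offset of 50, quantile normalization, the authors' table, a strict filter and no filter on dim probes, the mean of a gene's probes, slide and replicate blocks, slide 1 alone, Cdx1+/+ arrays alone, no genotype term, and leaving out each array. Leaving out the F10 repeat probe, fitting each probe on its own and turning the sign of the SIEC difference were added after seeing the data.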

Additional observations from a re-analysis of the deposited data

Results flagged for a closer look

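For 13 genes the Cdx1-/- minus Cdx1+/+ difference differed between mTEC and SIEC in the interaction test (limma, adjusted p under 0.05 over 25273 genes), and 5 of them were measured on both SIEC arrays. Each value is the mTEC difference minus the SIEC difference as labelled: Mbl2 gave -1.73, Klkb1 -1.29, C3 -1.04, Hc -0.85 and Apoh 1.09. With the sign of the SIEC difference turned, all 5 changed sign and C3 did not pass; Cdx1 itself stood at 6.48 under the SIEC label Cdx1-/-, against 4.87 under Cdx1+/+. After normexp correction Mbl2 alone of the 5 passed, and with the replicate number as a block Mbl2 and Klkb1. In the mTEC difference alone none of the 5 passed.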

How the results depend on the processing

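In the genotype comparison the count of members that fell was 5 with no filter on dim probes and ranged from 5 to 10 when 1 array was left out; the count that rose was 1 in the authors' table and with a strict filter (Hp in both), and 0 to 1 when 1 array was left out. Over all genes, those that fell numbered 1608 of 24338 in the main fit and 722 of 34963 with no filter. They numbered 547 to 935 of 24338 when 1 array was left out. Under the listed alternatives, counting once the identical fits on slide 1 alone and without Cdx1-/- replicate 1, 114 of 135 values of the 9 called genes kept their call, 21 lost it and none turned. The replicate block, with 10 genes that fell, added Ttr and changed no other mTEC genotype call. In the tissue comparison the values that turned were Fga -0.43, F11 -0.36, F13b -0.32, C8a -0.045, Mbl1 -0.57 and Masp1 -0.59 after normexp correction, C8g -0.19 and Rbp4 -0.19 in the authors' table, F10 1.63 and C8g -0.0044 with a gene's probes averaged, Fga, which was -0.026 without Cdx1+/+ SIEC replicate 1 and ranged up to 2.70 when another array was left out, and F10 4.67 without its repeat probe. Blocking on the number, which ties SIEC arrays to mTEC by number alone, ended the tissue calls of Fga, C8g, Mbl2 and Rbp4; dropping the genotype term ended those of C4bp and Rbp4. The interaction count was 3 after normexp correction, 7 with no filter, 4 with the replicate block, 12 with the SIEC difference turned (7 of them among the 13, with the opposite sign) and 8 to 12 when 1 mTEC array was left out. Over all genes, interaction calls above and below 0 numbered 1404 and 2241 in the main fit and 186 and 421 after normexp correction. They numbered 795 and 1481 with no filter, 581 and 945 with the replicate block, and 1602 and 936 with the SIEC difference turned. When 1 mTEC array was left out, 893 to 1146 were above 0 and 1567 to 1939 below. Between the SIEC arrays, members at least 2-fold higher numbered 1 after normexp correction, 1 after quantile normalization, 1 in the authors' table and 8 with no filter; those at least 2-fold lower numbered 0 after normexp correction, 1 with a strict filter and 4 with no filter. The cause of these changes was not tested, except that no filter adds probes that are not measured. Median differences moved by more than 1 SD of the arrays' medians in 37 of 136 cases, and 1 changed sign, the tissue median of the complement genes (-0.20 after normexp correction).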
